A study of Mus musculus with 13 samples.

Results

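Matrix metalloproteinases (MMPs) are zinc-dependent enzymes that cut collagens, laminins, elastin and other proteins outside the cell, as well as growth factors and their receptors at the cell surface. Most are secreted as inactive zymogens. They are switched on when a propeptide is cut away and are blocked by the tissue inhibitors of metalloproteinases (TIMPs). In skin, several are made by keratinocytes at wound edges and invading tumour fronts, others by fibroblasts or leukocytes, and the phorbol ester TPA is a classical inducer of some of their genes through the transcription factor AP-1.

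The 10 genes described are Mmp2, Mmp3, Mmp7, Mmp9, Mmp10, Mmp11, Mmp12, Mmp13, Mmp14 and Mmp19. They were taken as all probe sets whose only gene symbol is one of these names, which gave 13 of the 45141 probe sets on the arrays. Of the genes, 7 had 1 probe set each, and Mmp9, Mmp14 and Mmp19 had a pair.

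Expression was measured on 13 arrays of total RNA from squamous tumours of mouse back skin, 6 from G9a WT mice and 7 from G9a cKO (conditional knockout) mice. G9a, encoded by Ehmt2, is a histone methyltransferase of silent chromatin. Both groups were treated alike: 200 µl of the carcinogen DMBA (0.25 mg/ml) and of TPA (0.02 mg/ml) weekly for 6 weeks from 8 weeks of age, then TPA for up to 20 weeks, so no array shows untreated skin. The strain, the Cre line, and which part of Ehmt2 was deleted in which cells, were not given in the sources read for this work. Whether every tumour is from its own mouse is not stated, and the p-values then measure only how far these arrays spread.

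On the arrays, Ehmt2 probe set 1460692_PM_at lay between 8.03 and 8.61 in WT and between 5.87 and 6.12 in cKO tumours (log2, limma adjusted p = 1.3e-09 over all probe sets), while 1426888_PM_at differed by 0.13 (limma adjusted p = 0.163). Array medians lay between 5.09 and 5.14. The keratinocyte markers Krt5 and Krt14 had group means between 12.23 and 12.75. In 6 pairs of arrays that follow each other in the deposit, 3 in each group, values mirrored one another around the group mean (correlation of deviations between -0.953 and -0.881). The unpaired array, cKO replicate 1, lay closer to the mean of its group than any other, at a root mean square distance of 0.0757 over all genes against 0.228 to 0.281 on the other 12. A second fit with a term for each mirrored pair was therefore made, and a gene is said to rise or fall only where both fits called it. The second fit gives the same difference and takes its error from the spread within pairs alone. It does not measure how far pairs differ from one another, so a call in both fits does not remove the pairing. Each pair holds 1 genotype, so an effect of pair and of genotype cannot be told apart.

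For 5 of the 10 genes a start site on chromosome 9 carries the letters of the AP-1 element, through which TPA induces some genes of this family. The stretches around it are shown for that reason. They are 30 bases upstream of the annotated start, from RefSeq (GRCm38.p6, plus strand), with the 7 letters of the motif in capitals.
Mmp13, chr9:7272468-7272497: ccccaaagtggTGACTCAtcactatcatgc
Mmp12, chr9:7347319-7347348: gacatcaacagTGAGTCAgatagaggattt
Mmp3, chr9:7445765-7445794: ggaagcaattaTGAGTCAgttttcgggtga
Mmp10, chr9:7502268-7502297: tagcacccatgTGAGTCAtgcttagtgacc
Mmp7, chr9:7692016-7692045: aagtgtgcaaaTGAGTCAcctatttccaca

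The motif searched was TGAGTCA on both strands, from 250 bases before to 50 bases after each start. Promoters were found in the RefSeq table for 7 of the 10 genes, in 9 windows, and Mmp2, Mmp9 and Mmp19 were not matched. The first base of the motif lay 35 bases before the start in Mmp13, 44 bases in Mmp12, 46 bases in Mmp3 and 63 bases in both Mmp10 and Mmp7. In Mmp13 it reads on the minus strand. Mmp12 and Mmp7 each have a second annotated start without these letters, and the windows of Mmp11 (chromosome 10) and Mmp14 (chromosome 14) do not hold them. Of all 32851 promoters in the table, 5.20% hold the motif. None of the 5 matches overlapped a match to AGGAAG, a core of ETS sites, or to TATAAA, which were searched in the same way and occur in 35.4% and 13.6% of all promoters. These matches are descriptions of letters, not of bound sites.

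Among the MMP genes, Mmp11 rose in cKO tumours, Mmp19 was slightly higher and Mmp3 was called lower, but not in the fit with the pair term. The other 7 did not pass the test in either fit. In all, 2 of 10 genes were called higher and 1 lower without the pair term (limma, Benjamini-Hochberg adjusted p under 0.05), where 25.7% and 20.1% of all 17097 genes were called. With the pair term 2 were higher and 0 lower, against 14.4% and 10.3% of all genes. In either direction the shares were 45.8% and 24.7% of all genes. After quantile normalization 2 were higher and 0 lower, against 27.8% and 16.8% (44.6% in either direction). Of the 13 probe sets 4 were called, and 2 with the pair term, against 47.9% and 27.0% of all probe sets. Called with a difference over 0.5 were 2 of 10, against 8.70% of all genes. The counts of members called were near or below these shares, apart from the 2 genes, Mmp11 and Mmp3, with a called difference over 0.5. The median log2 difference of the 10 members (cKO minus WT) was -0.24, and 7 of 10 were negative, beside a median of 0.02 and 46.9% of all genes negative.

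**Figure D1:**
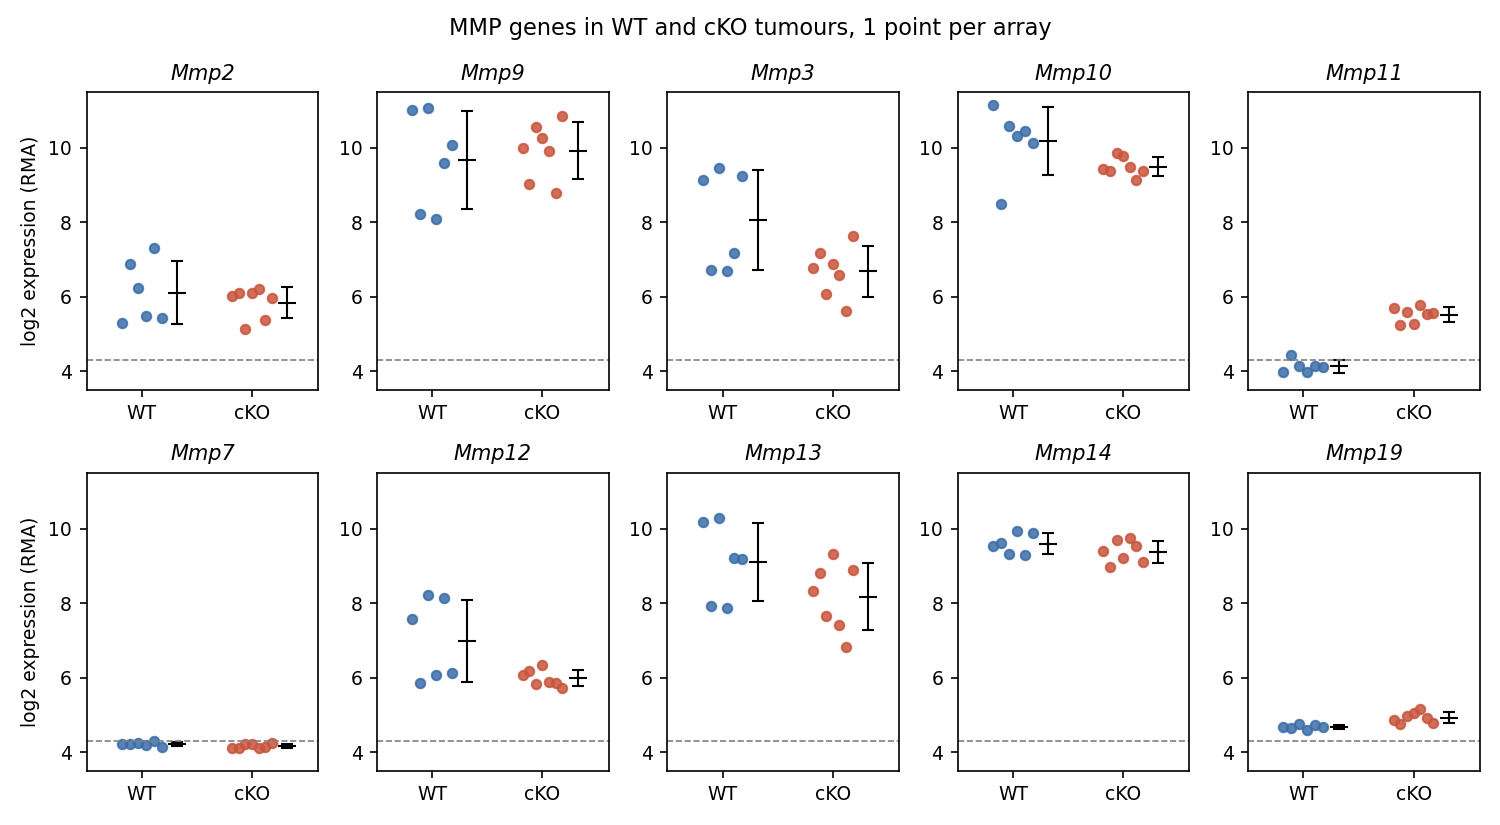
Log2 expression (RMA) of the 10 MMP genes on each of 6 WT and 7 cKO arrays, each gene read by its brighter probe set. Points are arrays, bars are mean ± SD, and the dashed line at 4.29 is the upper quartile of the nonspecific control probe sets. Mmp11 is the gene whose groups do not overlap, and Mmp7 lies at the control level in both groups.

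Mmp11, or stromelysin-3, differs from most of the family in being cut by furin inside the cell and secreted in active form, and is known from the stroma around carcinomas. On probe set 1417234_PM_at it read between 3.97 and 4.43 in WT tumours, with a median of 4.12, and between 5.22 and 5.76 in cKO tumours, with a median of 5.55. Every cKO array was above every WT array, which was true in either direction for 23.0% of all genes. Its mean rose from 4.13 ± 0.17 (SD, n = 6) to 5.52 ± 0.20 (SD, n = 7), a log2 difference of 1.39 ± 0.10 (SE; limma adjusted p = 6.7e-07, and 0.000606 with the pair term). As measured this is 2.62-fold. On 5 of 6 WT arrays the value was under 4.29, the upper quartile found for 23 nonspecific control probe sets, so the WT level is not well set apart from background. With such arrays put at that level, the rise of Mmp11 comes to at least 2.30-fold. On all 7 cKO arrays it was above that level.

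Several fibroblast and endothelial markers were also higher in cKO tumours, while pericyte and smooth muscle markers were mixed. Of 10 fibroblast markers 6 were higher and none lower, with and without the pair term, and the median of the list was 0.70. Over all genes 25.7% were higher and 20.1% lower, and 14.4% and 10.3% with the pair term. The summed level of the fibroblast markers (antilog of the log2 values) was 588 to 1540 on WT and 1349 to 2597 on cKO arrays. These ranges overlap. The collagen gene Col1a1 had a difference of 2.93 and Dcn, which encodes decorin, 1.10, while Col1a2, Pdgfra and Fap lay below 4.29 on all 13 arrays and Postn differed by -0.24 (limma adjusted p = 0.668). Of 8 endothelial markers 6 were called higher and none lower, and 5 and none with the pair term, with summed levels of 162 to 416 on WT and 470 to 804 on cKO arrays. Among 4 measured pericyte and smooth muscle markers, 2 were higher and 1 lower in both fits. The lower one, Rgs5, differed by -1.43 (limma adjusted p = 5.09e-05, and 0.00526 with the pair term). The part of these cells in the value of Mmp11 was not tested. In RNA from whole tumours, a change in the number of cells of a type and in RNA per cell cannot be told apart.

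By correlation over the 13 arrays, the genes most like Mmp11 were Gm12863 (r = 0.988), Ganc (r = 0.986) and Pkia (r = 0.984). These values follow the difference between the groups, and with group means removed they were 0.77, 0.72 and 0.69. They are descriptions over arrays that mirror each other and carry no test.

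Mmp19, a widely expressed member found in epidermis, was the other gene called higher in both fits, at a small size. On probe set 1421976_PM_at it read 4.60 to 4.76 in WT (median 4.67) and 4.74 to 5.16 in cKO tumours (median 4.91). The groups overlap at their edges, since cKO replicate 2 (4.74) lies below the highest WT array. The difference was 0.25 ± 0.06 (SE; limma adjusted p = 0.0070, and 0.0195 with the pair term). Nonspecific control probe sets differed between the groups by -0.31 to 0.08, so none was higher by as much as Mmp19, while the largest downward difference of a control was greater in size. The other probe set, 1421977_PM_at, lay below 4.29 on all 13 arrays and differed by 0.09 (limma adjusted p = 0.024 over all probe sets, and 0.154 with the pair term). The genes most like Mmp19 over the 13 arrays were 1700086L19Rik (r = 0.898), BC034090 (r = 0.888) and Loxl1 (r = 0.887), again as a description.

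The stromelysin genes Mmp3 and Mmp10, the elastase gene Mmp12 and the collagenase gene Mmp13 had the largest negative differences. Mmp3 encodes a broad protease that also activates other MMP zymogens. On its probe set, 1418945_PM_at, WT arrays fell into a low set of 6.68, 6.73 and 7.16 and a high set of 9.13, 9.25 and 9.46. The cKO arrays read 5.62, 6.07, 6.58, 6.78, 6.89, 7.17 and 7.64. All cKO arrays were thus below the high WT arrays, and they overlapped the low ones. The mean was 8.07 ± 1.34 (SD, n = 6) in WT and 6.68 ± 0.67 (SD, n = 7) in cKO tumours, a difference of -1.39 ± 0.53 (SE; limma adjusted p = 0.0483, and 0.172 with the pair term). The call was also lost after quantile normalization (limma adjusted p = 0.0626) and without any one of 9 arrays, at limma adjusted p between 0.0538 and 0.108.

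Each mirrored WT pair held 1 high and 1 low array for Mmp3, with gaps of 2.40, 2.78 and 2.09 on the log2 scale. The pair means were nearly alike, 7.93 to 8.21 in WT and 6.62 to 6.73 in cKO tumours. Values in these pairs mirror one another around the group mean over all probe sets. A high and a low array in each pair, with pair means alike, is therefore not particular to Mmp3, nor to Mmp12 below. How far pair means were free to vary is not known, since no label records an adjustment in pairs.

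Mmp12, made chiefly by macrophages and active on elastin, showed a like shape. WT arrays of 5.85, 6.06 and 6.12 stood beside others of 7.57, 8.13 and 8.22, while the 7 cKO arrays kept between 5.72 and 6.33. The high WT arrays lay above all cKO arrays and the low ones among them. The difference of -1.01 ± 0.39 (SE) missed the threshold by little (limma adjusted p = 0.0520, and 0.169 with the pair term). It passed without WT replicate 4, 7 or 9 (limma adjusted p = 0.0185, 0.0284 and 0.0314). These are the low WT arrays, and leaving out any of them can only widen the difference. Without WT replicate 2, 6 or 8, the high ones, it did not pass (limma adjusted p = 0.104, 0.114 and 0.113). Of 10 macrophage markers 3 were called higher and 1 lower, beside 25.7% and 20.1% of all genes, and with the pair term 2 and 0. Their summed level was 255 to 302 on WT and 277 to 429 on cKO arrays, ranges that overlap. Their part in the values of Mmp12 was not tested. Csf1r, which encodes the receptor for a macrophage growth factor, had a difference of 0.26. Adgre1 lay below 4.29 on all 6 WT arrays and on 4 of 7 cKO arrays.

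Mmp10, a stromelysin of keratinocytes at wound margins, read 10.12 to 11.14 on 5 WT arrays and 8.48 on WT replicate 4. The cKO arrays lay between 9.12 and 9.85, under the 5 and above the remaining WT array. The difference was -0.69 ± 0.33 (SE; limma adjusted p = 0.105, and 0.234 with the pair term). Leaving out WT replicate 4 gave -1.03 (limma adjusted p = 0.000544). With all arrays kept, Mmp10 was also called with array weights (-0.84, limma adjusted p = 0.0110). In that fit cKO replicate 1 had a weight of 32.8 and the other arrays 0.45 to 0.98, so 1 array dominates the cKO mean. Mmp10 was called with the replicate number as a block too (-1.23, limma adjusted p = 0.0216). That fit compares the groups only through replicates 2, 6, 8 and 9, the numbers that both groups hold. WT replicate 4 thus has no part in that difference. In the other 22 alternatives tried Mmp10 was not called.

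Mmp13, the main interstitial collagenase of rodents, ranged from 7.87 to 10.30 in WT (median 9.19) and from 6.83 to 9.32 in cKO tumours (median 8.34), with wide overlap. Its difference of -0.93 ± 0.50 (SE) did not pass (limma adjusted p = 0.147, and 0.314 with the pair term). The 95% interval was -2.03 to 0.16.

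Mmp7 encodes matrilysin, a short member best known from glandular epithelia. It read 4.15 to 4.31 in WT and 4.11 to 4.24 in cKO tumours, at or under the control level of 4.29 on all arrays but WT replicate 8 (4.31). Its difference of -0.05 (limma adjusted p = 0.228) is one of background.

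**Figure D2:**
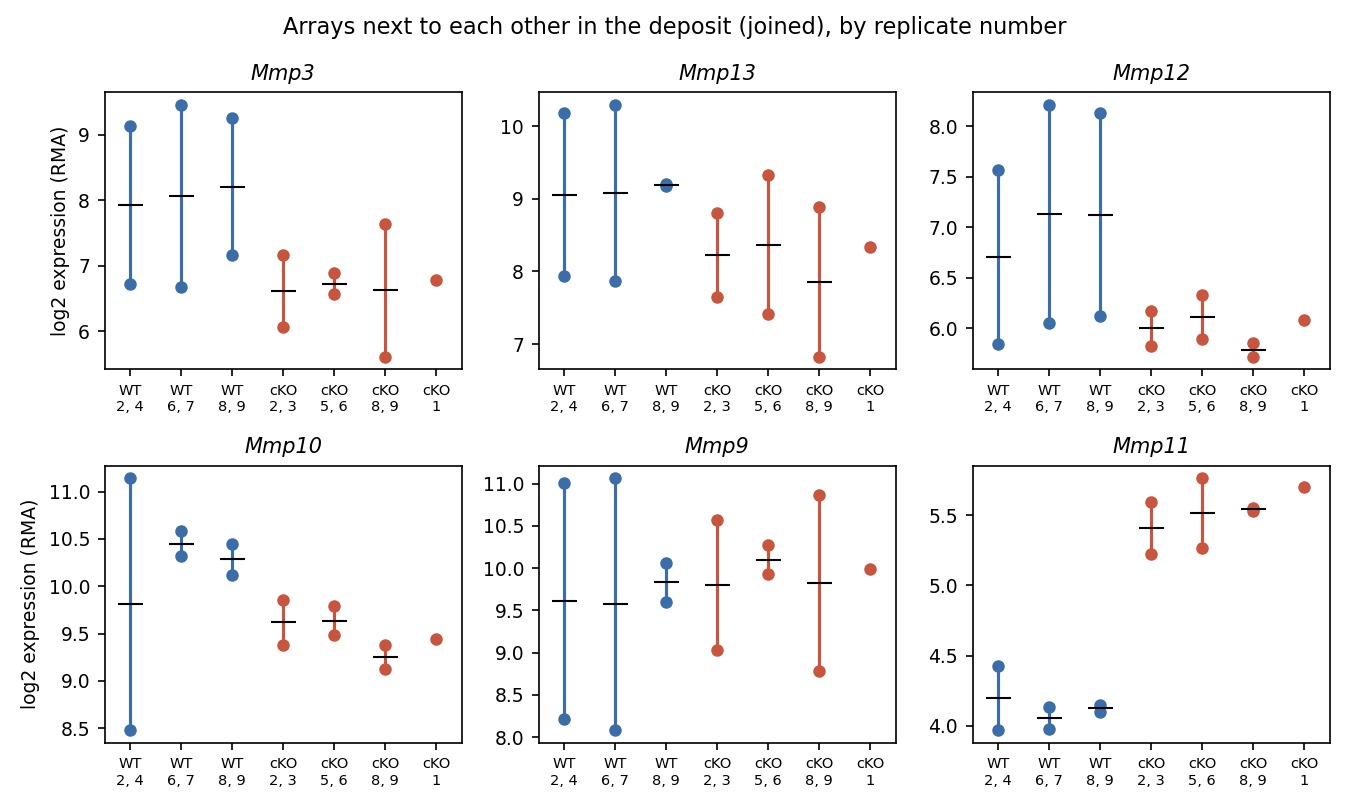
Log2 expression of 6 MMP genes on each array, with lines joining the mirrored arrays and black bars at pair means; cKO replicate 1 has no partner. Each panel has its own axis, which does not start at 0. Mmp3 and Mmp12 show a high and a low array in each WT pair, which is not particular to them, since paired arrays mirror each other over all probe sets. Every cKO pair lies above every WT pair for Mmp11.

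The gelatinases and the membrane-bound member did not differ beyond their spread. Mmp9, which degrades type IV collagen, was among the genes with the largest spread within WT tumours, from 8.08 to 11.07, and cKO arrays lay inside that range at 8.78 to 10.86. Its probe sets gave differences of 0.25 ± 0.54 and -0.02 ± 0.43 (SE; limma adjusted p = 0.733 and 0.973 over all probe sets). With 95% intervals of -0.93 to 1.42 and -0.96 to 0.92, neither a rise nor a fall is shown. Neutrophils also carry this enzyme. Of 8 neutrophil markers 4 were called higher and none lower, 1 of them with the pair term. The shares of all genes were 25.7% and 20.1%, and 14.4% higher with the pair term. The summed level of the neutrophil markers was 325 to 2393 on WT and 295 to 700.5 on cKO arrays. It was led by S100a8 and S100a9, which keratinocytes express too. Elane and Csf3r lay below 4.29 on all 13 arrays. The part of neutrophils in the values of Mmp9 was not tested.

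Mmp2, a gelatinase mostly of fibroblasts, read 5.29 to 7.30 in WT (median 5.87) and 5.12 to 6.20 in cKO tumours (median 6.02). Its difference was -0.26 ± 0.34 (SE; limma adjusted p = 0.547), although 6 of 10 fibroblast markers were higher in cKO tumours. Mmp14 sits in the cell membrane, cuts collagen there and activates the Mmp2 zymogen together with Timp2. Its brighter probe set, 1448383_PM_at, lay between 9.31 and 9.94 in WT and between 8.98 and 9.75 in cKO tumours. The differences of its probe sets were -0.22 ± 0.15 and 0.04 ± 0.15 (SE; limma adjusted p = 0.236 and 0.859 over all probe sets), and the intervals keep within -0.55 and 0.35.

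**Figure D3:**
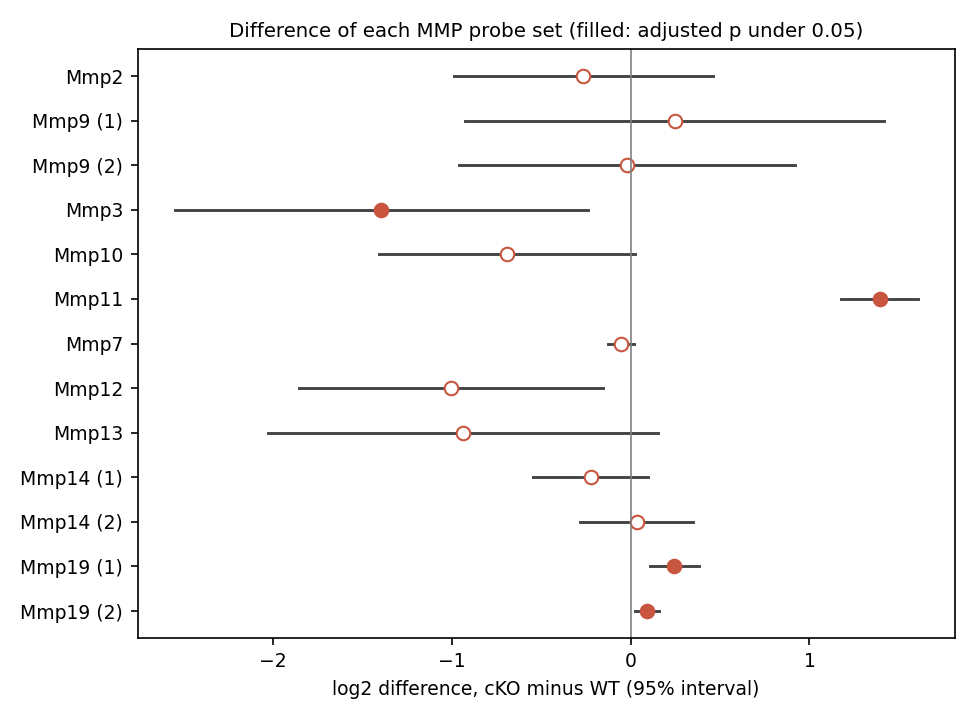
Log2 difference (cKO minus WT) of each of the 13 MMP probe sets, with 95% intervals from the limma fit of all probe sets without the pair term. Filled points had an adjusted p under 0.05 in that fit. Mmp11 stands at 1.39 with a narrow interval, whereas Mmp3, Mmp12, Mmp13 and both Mmp9 probe sets have intervals over 1.5 wide.

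The spread between arrays differed widely among the MMP genes. Mmp3 and Mmp9 had SDs of 1.34 and 1.31 among WT arrays, exceeded by 0.0643% and 0.0819% of all genes, and 0.31% of genes exceeded the SD of Mmp13 (1.05). At the other end, 85.8% of all genes had a larger SD than Mmp7 among WT arrays, 81.3% a larger one than Mmp19, 37.3% than Mmp11 and 16.9% than Mmp14. Spread was greater in WT than in cKO for 6 of 10 MMP genes, where 65.9% of all genes had the larger SD in WT. The ratio of SDs (WT over cKO) was 5.02 for Mmp12, 3.59 for Mmp10, 2.02 for Mmp2, 1.99 for Mmp3 and 1.71 for Mmp9, beside a median of 1.20 over all genes. The ratio was above 1.5 for these 5 of the 10 genes and for 31.0% of all genes. The cKO SDs include cKO replicate 1, which lay close to its group mean over all genes and so tends to lower them. Both groups hold arrays that mirror each other. No test was made of these ratios.

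Whether MMP genes were high on the same arrays was counted over the 6 mirrored pairs for all 45 combinations of 2 members. The same array was the higher one in 5 pairs for 8 combinations, in 4 for 12, in 3 for 14, in 2 for 7, in 1 for 3 and in 0 for 1. An equal split would be 3 of 6. The combinations at 5 include Mmp3 with Mmp13 and with Mmp9, but also Mmp7, which lies at background, with Mmp10 and with Mmp11. Mmp3 shared its higher array with Mmp10 and with Mmp12 in 4 pairs. Mmp14 and Mmp13 did so in 0. These are counts over few pairs that share processing, and no test was made.

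The 5 members on chromosome 9 lie in 1 cluster, in the order Mmp13, Mmp12, Mmp3, Mmp10 and Mmp7, with other MMP genes between them. The same stretch holds Birc2, an inhibitor of apoptosis, and Yap1, a growth-promoting coactivator. All 5 members had negative differences, with a median of -0.93, but only Mmp3 was called and only without the pair term. Of 20 measured genes of the cluster and its flanks, 6 were lower and 1 higher, beside 20.1% and 25.7% of all genes. Their median was -0.22 beside 0.02 over all genes. With the pair term 2 of the 20 were lower and none higher, beside 10.3% and 14.4% of all genes. The flanking gene Tmem123, which encodes a membrane protein, fell from 8.46 ± 0.16 to 7.86 ± 0.27 (SD, n = 6 and 7; limma adjusted p = 0.0012, and 0.0246 with the pair term). Dync2h1, a motor subunit of cilia, differed by -0.21 (limma adjusted p = 0.0026, and 0.0448 with the pair term), and Birc2 by -0.33 (limma adjusted p = 0.0071, and 0.0589 with the pair term). The largest downward difference of a nonspecific control probe set, -0.31, was greater in size than that of Dync2h1. Mmp1b, a rodent relative of interstitial collagenase, differed by -1.16 (limma adjusted p = 0.0081, and 0.0644 with the pair term). DNA copy number was not measured here.

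**Figure D4:**
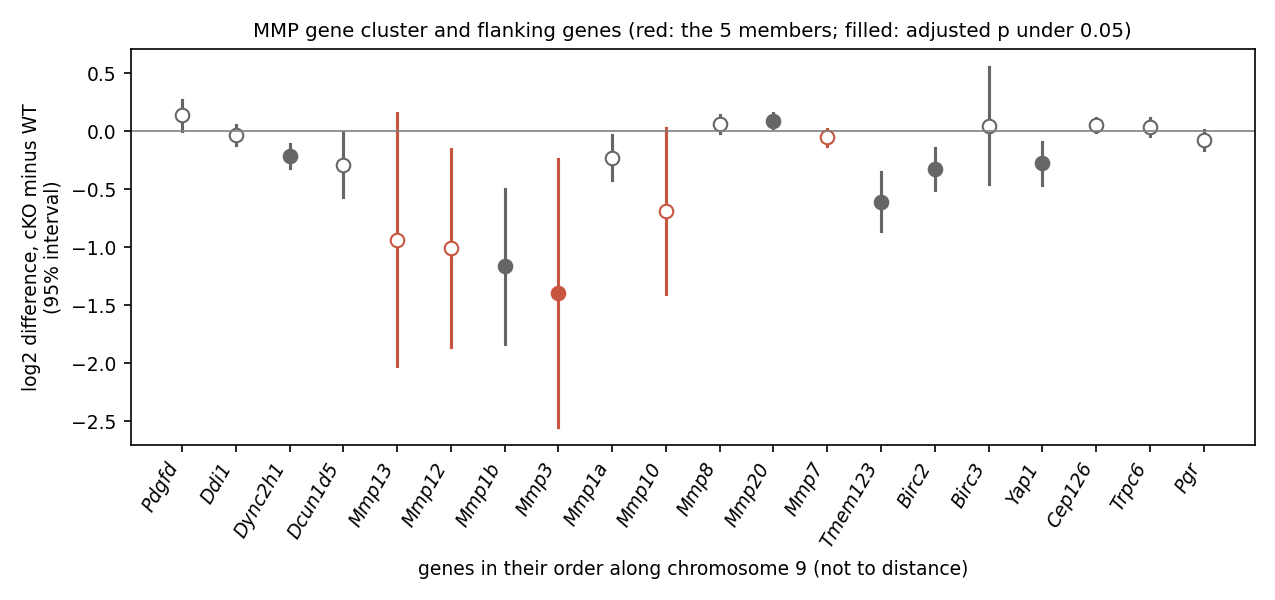
Log2 difference (cKO minus WT) with 95% intervals for the measured genes of the chromosome 9 MMP cluster and its flanks, in gene order and not to distance. Red marks the 5 members, and filled points had a limma adjusted p under 0.05 without the pair term. The points of the MMP genes from Mmp13 to Mmp10 lie below 0, but the intervals of Mmp13 and Mmp10 include 0. Among them, Mmp1a is near background and Mmp1b lay below 4.29 on 4 of 7 cKO arrays. Mmp8, Mmp20 and Mmp7, all near background, lie near 0.

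The other MMP genes were mostly dim. Of 8 measured, 2 were higher (Mmp23 and Mmp20) and 1 lower (Mmp1b), with a median of 0.06, and with the pair term 1 was higher. The shares of all genes were 25.7% and 20.1%, and 14.4% higher with the pair term. Mmp23, a membrane-anchored member without the usual haemopexin domain, rose from 5.67 ± 0.14 to 6.08 ± 0.15 (SD, n = 6 and 7; limma adjusted p = 0.000799, and 0.0207 with the pair term), with no overlap between the groups. Mmp20, an enzyme of tooth enamel, lay below 4.29 on all 13 arrays.

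Of 10 inhibitors and surface regulators of MMPs, 3 were higher and 1 lower, beside 25.7% and 20.1% of all genes. Their median was 0.06. With the pair term 2 of the 10 were higher and none lower, beside 14.4% and 10.3% of all genes. Bsg, which encodes basigin, a surface protein known for inducing MMPs in neighbouring fibroblasts, rose by 0.35, from 9.32 to 9.67 (limma adjusted p = 0.000309, and 0.0130 with the pair term). The TIMP genes did not pass: Timp1 differed by 0.25, Timp2 by -0.05 and Timp3 by -0.72, at limma adjusted p of 0.740, 0.890 and 0.341. Pzp and A2m, genes of plasma protease inhibitors, were called higher at or near background.

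Among 22 proteases that activate MMP zymogens and their inhibitors, 4 were higher and 7 lower, beside 25.7% and 20.1% of all genes. Their median was -0.10. With the pair term 1 of the 22 was lower, beside 10.3% of all genes. That gene, Plg, lay below 4.29 on all 13 arrays. Plat, the tissue plasminogen activator, differed by 0.86, from 5.94 to 6.80 (limma adjusted p = 0.0080, and 0.0612 with the pair term).

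Of 22 other metzincin proteases, the wider family of the MMPs, 9 were lower and 4 higher, beside 20.1% and 25.7% of all genes. Their median was -0.15. The pair term left 7 lower genes and 1 higher, beside 10.3% and 14.4% of all genes. Tll1, which trims procollagen, fell at least 4.60-fold, from 6.52 ± 0.87 to 3.84 ± 0.40 (SD, n = 6 and 7), with 6 of 7 cKO arrays below 4.29. The limma adjusted p was 5.36e-05, and 0.00531 with the pair term. Adamts8 and Tll2 were called lower at background level.

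Of 19 measured genes of matrix proteins that MMPs cut, 5 were higher and 1 lower, with a median of 0.06, and 4 and 1 with the pair term. The shares of all genes were 25.7% and 20.1%, and 14.4% and 10.3% with the pair term. Col3a1, Col1a1 and Dcn, with differences of 3.22, 2.93 and 1.10, had the smallest p, and all are also among the fibroblast markers.

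Of 18 AP-1, ETS and other regulators 3 were lower and 1 higher in both fits, with a median of -0.03. Over all genes 20.1% were lower and 25.7% higher, and 10.3% and 14.4% with the pair term. Ets1 fell from 8.38 ± 0.34 to 7.27 ± 0.39, and Elf3, an epithelial ETS factor, from 7.24 ± 0.27 to 6.25 ± 0.32 (SD, n = 6 and 7; limma adjusted p = 0.000527 and 0.000264, and 0.0134 and 0.0104 with the pair term). Fosl2, an AP-1 subunit, fell by 0.43 (limma adjusted p = 0.0010, and 0.0146 with the pair term). Of 6 measured ETS factor genes, 2 were thus called and 4 were not. Of these, Ets2 differed by -0.40 (limma adjusted p = 0.0529), Etv1 by 0.02, Etv4 by 0.01 and Etv5 by 0.10. The single gene called higher, Junb, named after its value was seen, differed by 0.44 (limma adjusted p = 0.0032, and 0.0402 with the pair term). The other 5 of 7 measured AP-1 subunit genes, among them Fos and Jun, did not pass. Of 17 cytokines and growth factors that induce MMP genes, 2 were higher and 4 lower, with a median of -0.09, and 1 and 1 with the pair term. These counts stand beside the same shares of all genes. Hgf, the scatter factor gene, rose by 0.23 (limma adjusted p = 2.08e-05, and 0.00672 with the pair term), and Il6 and Il17a were called at background level.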

How the data were processed

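Per the submitters' processing notes the authors used RMA, with no version named, and the deposited file holds 1 log2 value for each probe set and array. RMA as a method subtracts background, brings arrays to 1 distribution and summarizes probes, which is meant to remove small shifts common to a whole array. The deposited values were not on exactly 1 distribution. Array medians lay between 5.09 and 5.14, and quantile normalization moved the difference of Mmp14 from -0.22 to -0.05. Per the labels' protocols, 25 ng of TRIzol-extracted RNA was amplified in 17 cycles, and 8 µg of cDNA was labelled with biotin. Scanner output was not used here. Group and replicate number were read from each title.

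The arrays hold 45141 probe sets: 104 array controls, 28898 with 1 gene symbol, 551 with several and 15588 with none. For each of 17097 genes the probe set with the highest mean was kept. The tool was limma 3.58.1 under R 4.3.3 (lmFit and eBayes, two-sided). No covariate entered, and p was adjusted by Benjamini-Hochberg across all genes, or across the 45037 probe sets that are no array controls. The second fit had 1 mean for each mirrored pair. Background was judged from 23 nonspecific control probe sets. The fits were tested on simulated data with independent arrays and no mirrored pairs, so that test does not cover the mirroring. Members, gene lists and the pair term were chosen with earlier results of these data known. Named genes are the members, up to 3 per list by smallest p, and the 3 most correlated with each member called in both fits; Timp1, Timp2, Timp3, Junb and some cell markers stand outside this rule. The number of arrays limits the precision. Alternatives covered normalization, filters, priors, array weights and leaving out each array. Figures were drawn with matplotlib 3.10.9.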

Additional observations from a re-analysis of the deposited data

How the results depend on the processing

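Mmp11 kept its direction and its call under all 25 alternatives tried, with differences from 1.35 to 1.55. Mmp19 lost its call with the replicate number as a block (0.19), and its differences were 0.17 to 0.28. Mmp3 lost its call in 13 of 25, and without single arrays its difference was -1.67 to -1.11. The number of MMP genes called lower was 0 after quantile normalization, 0 with the pair term, 0 with both together, 0 at an adjusted p under 0.01, 2 with a trended robust prior and 4 with array weights, which gave cKO replicate 1 a weight of 32.8 and every other array less than 1. Leaving out 1 array gave 0 to 3. With a difference over 0.5 also required, 1 was higher.

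The replicate block gave 1 higher and 3 lower MMP genes and 1668 higher and 1387 lower of all genes. Arrays whose number occurs in only 1 group have no part in the differences of that fit. Same-numbered arrays of both groups correlated at 0.05, -0.30, -0.14 and -0.07 in their deviations, so the numbers were not taken as pairs. Over all genes, 4386 were higher and 3444 lower without a further term. The counts were 2459 and 1769 with the pair term, 2588 and 1345 with it after quantile normalization, 11009 and 10556 for single probe sets, and 656 and 831 with a difference over 0.5. At an adjusted p under 0.01, 2234 were lower, and over the 25th percentile of level 2901 were higher. Leaving out an array gave 3999 to 4301 higher and 3017 to 3475 lower. The pair term with cKO replicate 1 left out, chosen after seeing the data, gave 2216 and 1586, with 2 MMP genes higher and 0 lower.

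Mmp9 had no stable sign. It was -0.78 with the replicate block, -0.04 and -0.072 without WT replicate 4 or 7, and from -0.072 to 0.52 over single arrays left out. Its second probe set was 0.11 after quantile normalization, alone or with the pair term, and -0.26 to 0.22 without single arrays. That of Mmp14 was -0.036 to 0.10 without single arrays. Ehmt2 probe set 1426888_PM_at was 0.24 after quantile normalization, and 0.074 to 0.17 without single arrays. For these changes the cause was not tested.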
